A study of Mus musculus with 6 samples.

Results

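The genes described here are 10 genes of bone morphogenetic protein (BMP) signalling in mouse gastruloids, chosen by name: the ligand genes *Bmp2*, *Bmp3*, *Bmp4*, *Bmp5* and *Bmp7*, the antagonist genes *Nog* and *Bambi*, and the target genes *Id1*, *Id2* and *Id3*. They were 10 of the 35565 genes in the count table, and all 10 carried enough counts to be tested, *Bmp2* and *Bmp3* through the Control libraries. Gastruloids are aggregates of embryonic stem cells that elongate and set up an anteroposterior axis in culture after a pulse of the WNT activator CHIR99021. The data are bulk RNA-seq of day 5 gastruloids grown from the mouse embryonic stem cell line TBV2 (129/SvP), with 3 biological replicates of Control (NT), cells with a non-targeting construct that the sample labels call WT, and 3 of KD-1, 1 clone with knockdown of the ultra-conserved lncRNA *T-UCstem1*. Each group is therefore 1 cell line, both groups went through the same gastruloid protocol including the CHIR99021 pulse, and p-values measure the spread between libraries of these lines. The extent of the knockdown was not analysed here.

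BMPs are secreted dimers of the TGF-β family. They bind type I and type II serine/threonine kinase receptors, which phosphorylate SMAD1, SMAD5 and SMAD9, and these enter the nucleus with SMAD4 and switch on target genes. The ID genes are among the most direct of these targets, and their proteins bind E proteins and keep them off DNA. In the early embryo BMP signalling patterns mesoderm and ectoderm, secreted antagonists such as Noggin shield the node and the axial midline from it, and in cultured mouse embryonic stem cells BMP and the ID proteins are known for holding back neural differentiation.

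Library totals ranged from 20982249 to 85561026 counts, and libraries are named by their depth within their group (lowest, middle and highest). Levels are TMM-normalized CPM, counts scaled by library size. A gene was called when its adjusted p in edgeR's quasi-likelihood test, over 15110 genes, was under 0.05 and its level changed by more than 1.5-fold. Many genes were called: 37.7% of all tested genes, 19.7% as higher and 18.1% as lower in KD-1, and the 2 groups did not overlap for 70.6%. The whole aggregate differed in its marker genes too. In KD-1, 6 of 6 pluripotency markers (including *Nanog* and *Esrrb*) were called higher and their summed level was 1996 to 2066 CPM, against 679 to 727 in Control. All 6 paraxial mesoderm and somite markers (including *Meox1* and *Tcf15*) were called lower, with summed levels of 3.16 to 3.39 CPM against 401 to 456. *Tbx6*, *Foxc2*, *Tbx18* and *Uncx* carried enough counts to be tested through the Control libraries, so a call of them could hardly be other than lower. The paper had already named *Nanog*, *Esrrb*, *Zfp42*, *Klf4*, *Tfcp2l1*, *Meox1*, *Foxc2* and *Tbx18* as changed in these data, so these calls are no independent support. Of the neural markers 4 of the 5 tested were called higher, with sums of 149 to 151 CPM against 34.8 to 38.9. The summed level was 60.6 to 65.0 CPM in KD-1 and 54.5 to 62.7 in Control for caudal epiblast and neuromesodermal progenitor markers, 2.65 to 3.24 and 2.04 to 2.80 for lateral and extraembryonic mesoderm markers, 265 to 273 and 121 to 147 for definitive endoderm markers, mostly *Trh*, 17.8 to 19.0 and 8.08 to 13.2 for surface ectoderm markers, of which *Krt14* was at 0 in every library, and 33.7 to 35.9 and 17.6 to 18.4 for endothelial markers, mostly *Pecam1*. Calls went both ways in each of these lists except surface ectoderm, which the sums do not show. Of the caudal epiblast markers 2 were called higher and 1 lower of 6 tested, and of the lateral mesoderm markers 1 and 2 of 4. The definitive endoderm markers had 1 called higher and 1 lower of 3 tested, and the endothelial markers 3 and 2 of 5. Of the 3 surface ectoderm markers tested, 2 were called higher. In these lists *Foxf1*, *Foxa1* and *Etv2* were tested through the Control libraries, and *Trp63* and *Sox7* through the KD-1 libraries. In bulk libraries fewer cells of a type and less RNA per cell cannot be told apart. The part of these markers in the results on BMP genes was not tested.

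Of the 10 genes, 1 was called higher in KD-1, 5 were called lower and 4 were not called, and the groups did not overlap for 6. Their median log2 fold change was -0.95, against -0.01 over all tested genes. Across all tested genes 19.7% were called higher, 18.1% were called lower and 70.6% had no overlap between groups. No test compared the 10 genes with these shares. By role, the ligands moved most, with 4 called lower, 1 called higher and a median of -3.12, the value of *Bmp2*. *Bmp2* and *Bmp3* were tested through the Control libraries, so a call of them could hardly be other than lower. With at least 10 counts in every library, where neither was tested, 3 of the 10 genes were called lower. The antagonists had no call, and the ID genes had 1 call, lower, with a median of -0.48.

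**Figure D1:**
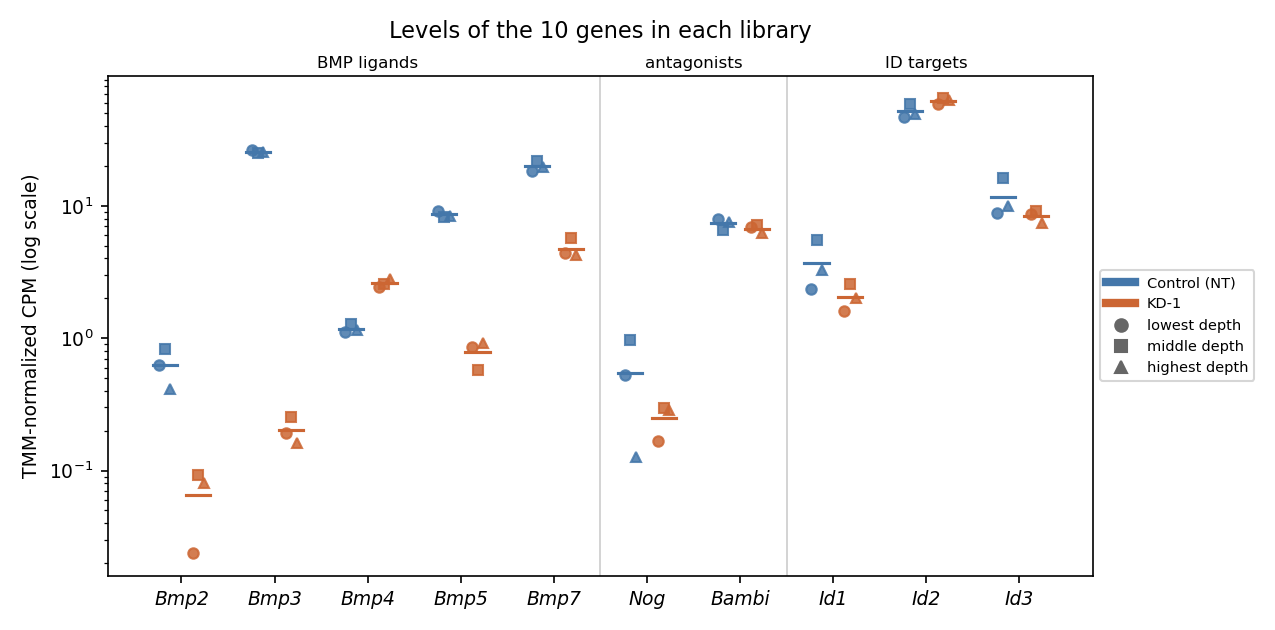
Levels of the 10 genes in TMM-normalized CPM (vertical axis, log scale), with 1 point per library, shapes for depth within the group, and a line at the mean of each group of 3. The ligands *Bmp2*, *Bmp3*, *Bmp5* and *Bmp7* lie lower in all 3 KD-1 libraries, *Bmp4* lies higher, and the groups overlap for *Nog*, *Bambi*, *Id1* and *Id3*.

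*Bmp3* (ENSMUSG00000029335, GRCm39 chromosome 5, 99002268 to 99032255, plus strand), an atypical member of the family that opposes rather than activates SMAD1/5 signalling, fell furthest. Its level was 26.6, 25.0 and 25.4 CPM in the Control libraries, in order of rising depth, and 0.191, 0.253 and 0.161 CPM in KD-1. Control libraries agreed closely while KD-1 held 8, 11 and 14 counts. The log2 fold change was -7.04 ± 0.14 (SE, n = 3 per group, 95% interval -7.37 to -6.71, edgeR adjusted p = 8.6e-09), a 131-fold fall that ranked 32nd among the fitted falls of the 15110 genes. The gene went from 25.7 ± 0.835 CPM (SD, n = 3) to 0.202 ± 0.0468.

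*Bmp5* (ENSMUSG00000032179, chromosome 9, 75682638 to 75807592, plus strand) and *Bmp7* (ENSMUSG00000008999, chromosome 2, 172709805 to 172782410, minus strand) encode close relatives, ligands with overlapping roles in the early embryo. *Bmp5* was at 9.21, 8.26 and 8.41 CPM in Control and at 0.859, 0.575 and 0.921 CPM in KD-1. Every KD-1 library was far under every Control library, and the log2 fold change was -3.42 ± 0.19 (SE, 95% interval -3.85 to -3.00, edgeR adjusted p = 1.2e-06), a 10.7-fold fall. An antisense lncRNA, *Gm26903*, covers 46.6% of the exonic bases of *Bmp5* and was not analysed here, so reads of this pair cannot be told apart where strand was not used in counting.

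*Bmp7* was the most abundant of the 5 ligand genes per length in both groups. Its level was 18.3, 21.7 and 19.7 CPM in Control and 4.37, 5.68 and 4.23 CPM in KD-1. The groups did not overlap, and the fall was 4.22-fold, with a log2 fold change of -2.08 ± 0.13 (SE, 95% interval -2.38 to -1.78, edgeR adjusted p = 3.1e-06).

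*Bmp2* (ENSMUSG00000027358, chromosome 2, 133394079 to 133404816, plus strand), a ligand known for its role in mesoderm and heart formation, was low in both groups. Control libraries held 13, 28 and 23 counts, or 0.627, 0.829 and 0.415 CPM. KD-1 libraries held 1, 4 and 7 counts, or 0.0239, 0.0920 and 0.0806 CPM. Even so the groups did not overlap, and the log2 fold change was -3.12 ± 0.56 (SE, edgeR adjusted p = 0.0012), with a wide 95% interval of -4.38 to -1.85.

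*Bmp4* (ENSMUSG00000021835, chromosome 14, 46620250 to 46636745, minus strand), the ligand of the early embryo best known for inducing mesoderm and germ cell precursors, was the 1 ligand of the 5 that rose. It was at 1.11, 1.27 and 1.16 CPM in Control and at 2.46, 2.55 and 2.79 CPM in KD-1. The 2.20-fold rise was larger than the spread in either group, with a log2 fold change of 1.14 ± 0.18 (SE, 95% interval 0.72 to 1.56, edgeR adjusted p = 6.9e-04). Of all tested genes, 19.5% changed by more in either direction, whereas only 0.602% changed by more than *Bmp3*. Antisense lncRNA genes cover 22.5% and 8.62% of the exonic bases of *Bmp4*, with the same limit as for *Bmp5*.

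Put on 1 scale per exon length, the summed level of the ligand genes *Bmp2* to *Bmp8b* fell from 10.7 ± 0.318 to 2.33 ± 0.146 CPM per kb (SD, n = 3), and its makeup differed between the groups. *Bmp7* held 42.3% of the sum in Control and 45.9% in KD-1. *Bmp3* went from 32.6% to 1.16% and *Bmp5* from 20.1% to 8.43%. *Bmp4* went from 2.11% to 21.3%, and *Bmp6*, a ligand outside the 10 genes, from 1.40% to 20.3%. Without division by length the shares of *Bmp4* were 2.07% and 24.7%, and those of *Bmp3* 45.2% and 1.90%. These shares are a description with no test. The sum includes *Bmp3*, which opposes SMAD1/5 signalling and went from 3.47 to 0.0272 CPM per kb. It is therefore not a level of activating ligands alone. The ratio of *Bmp4* to *Bmp7* in CPM was 0.0605, 0.0586 and 0.0586 in the Control libraries and 0.563, 0.449 and 0.659 in KD-1.

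**Figure D2:**
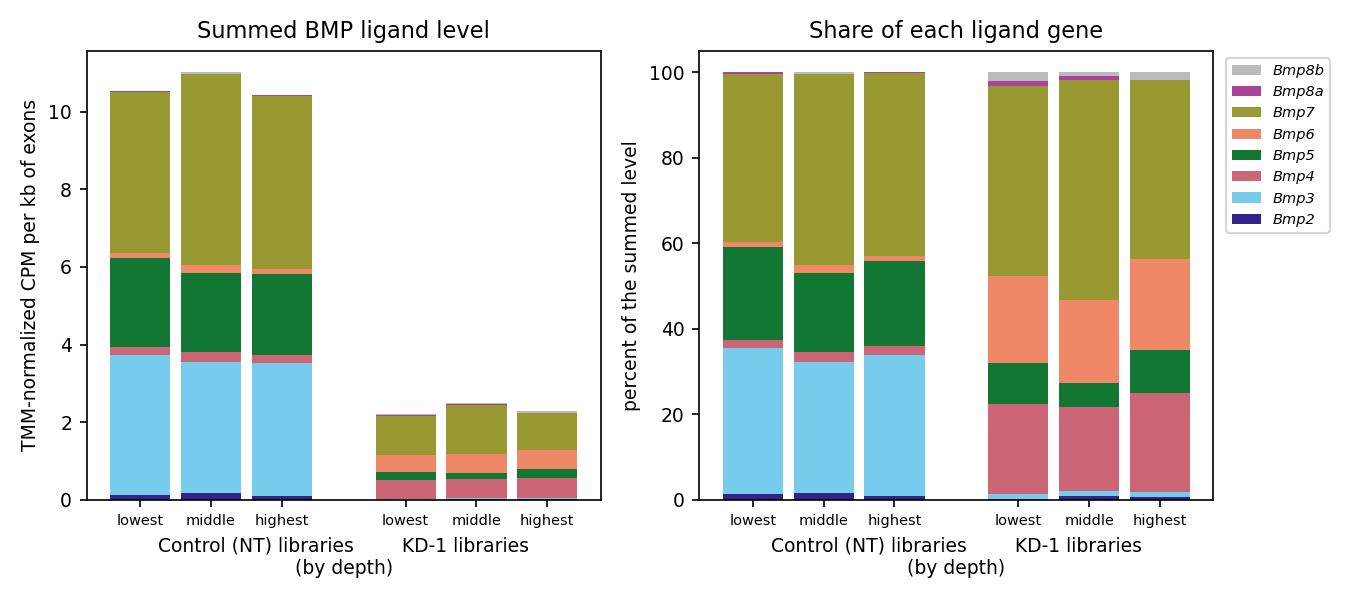
BMP ligand genes in each of the 6 libraries, ordered by depth within the group: the left bars stack TMM-normalized CPM per kb of exons, and the right bars show each gene as a percent of the sum in that library. The sum, which includes *Bmp3*, is 10.4 to 11.0 in Control and 2.22 to 2.50 in KD-1. *Bmp4* and *Bmp6* take between 19.5% and 23.3% each in the KD-1 libraries.

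*Bmp6* itself rose from 0.588 ± 0.21 to 1.86 ± 0.0802 CPM (SD, n = 3, log2 fold change 1.66 ± 0.29 SE, edgeR adjusted p = 0.0011). *Gdf6* was at 0.140 and 0.314 CPM and was not called (log2 fold change 1.09, edgeR adjusted p = 0.1), though without the deepest Control library it was, at 1.73 (adjusted p = 0.05). The ligand genes *Bmp8a*, *Bmp8b*, *Bmp10*, *Bmp15*, *Gdf2*, *Gdf5* and *Gdf7* were too low to be tested, with means from 0 to 0.210 CPM.

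The antagonist *Nog* (ENSMUSG00000048616, chromosome 11, 89191464 to 89193158, minus strand) encodes Noggin, a secreted protein that binds BMPs and blocks their receptor sites. Control libraries gave 11, 33 and 7 counts, or 0.531, 0.977 and 0.126 CPM, and KD-1 libraries 7, 13 and 25 counts, or 0.167, 0.299 and 0.288 CPM. The groups overlapped, since the deepest Control library was the lowest of all 6. The difference was not called (log2 fold change -1.03 ± 0.69 SE, 95% interval -2.59 to 0.54, edgeR adjusted p = 0.22), and the wide interval holds both a fall and a rise. The coefficient of variation of *Nog* was 78.1% among the Control libraries, against a median of 12.0% over all genes, and 29.1% among the KD-1 libraries, against a median of 4.92%. The counting intervals of the Control libraries did not all overlap: exact 95% Poisson intervals were 0.655 to 1.34 CPM of the library total for the middle Control library and 0.0497 to 0.254 for the deepest. Without the middle Control library the log2 fold change of *Nog* was -0.06 (edgeR adjusted p = 0.94), and without the deepest it was -1.59 (adjusted p = 0.025), past the threshold for a call. With limma-voom it was -0.42.

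*Bambi* (ENSMUSG00000024232, chromosome 18, 3507871 to 3516404, plus strand) encodes a transmembrane pseudoreceptor without a kinase domain that dampens signalling and is itself a BMP target. Its level was 8.01, 6.57 and 7.55 CPM in Control and 6.89, 7.10 and 6.22 CPM in KD-1. Values of both groups overlapped, with a log2 fold change of -0.13 ± 0.12 (SE, edgeR adjusted p = 0.37) and a 95% interval from -0.41 to 0.15 that leaves out a 1.5-fold change either way. The ratio of *Bambi* to *Bmp4* was 6.30 ± 1.05 in Control and 2.61 ± 0.326 in KD-1 (SD, n = 3).

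Of the 3 ID genes, *Id1* alone was called. *Id1* (ENSMUSG00000042745, chromosome 2, 152566218 to 152579544, plus strand) was at 2.36, 5.57 and 3.25 CPM in Control and at 1.60, 2.58 and 2.00 CPM in KD-1. It was called lower (log2 fold change -0.87 ± 0.31 SE, 95% interval -1.58 to -0.16, edgeR adjusted p = 0.037), although the shallowest Control library lay under the middle KD-1 library. The call of *Id1* was lost when any 1 of 4 libraries was left out: to -0.49 without the middle Control library (adjusted p = 0.066), -0.98 without the deepest Control library (0.06), -0.71 without the shallowest KD-1 library (0.13) and -0.83 without the deepest (0.11).

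*Id3* (ENSMUSG00000007872, chromosome 4, 135870808 to 135873066, plus strand) was at 8.78, 16.2 and 9.96 CPM in Control and at 8.64, 9.15 and 7.44 CPM in KD-1. Its highest value was again in the middle Control library, and the KD-1 values reached into the Control range. The log2 fold change was -0.48 ± 0.21 (SE, 95% interval -0.97 to 0.00, edgeR adjusted p = 0.077) and was not called. Without the shallowest Control library *Id3* was called at -0.63 (adjusted p = 0.027), and without the middle one the value was -0.19 (adjusted p = 0.17).

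*Id2* (ENSMUSG00000020644, chromosome 12, 25143798 to 25147282, minus strand), the most abundant of the 10 genes per length, was at 46.8, 58.7 and 49.4 CPM in Control and at 59.2, 64.7 and 63.4 CPM in KD-1. The groups did not overlap, yet the difference was small, 0.27 ± 0.09 on the log2 scale (SE, 95% interval 0.07 to 0.48, edgeR adjusted p = 0.026), and under the 1.5-fold threshold. The adjusted p of *Id2* was above 0.05 when any 1 of 4 libraries was left out (0.068 to 0.097). Antisense lncRNA genes cover 22.8% and 13.4% of the exonic bases of *Id2*. The ratio of *Id2* to *Id1* in CPM was 19.8, 10.6 and 15.2 in Control and 37.0, 25.1 and 31.6 in KD-1.

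The exact permutation test of 3 libraries against 3 cannot give a two-sided p under 0.1, the value of every member whose groups did not overlap.

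**Figure D3:**
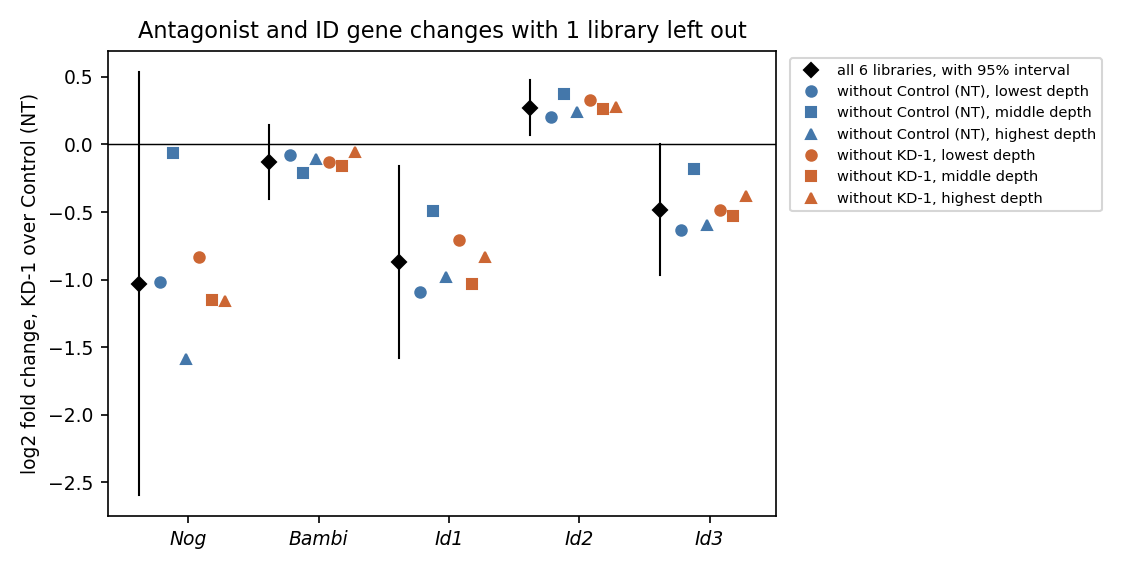
Log2 fold change (vertical axis, KD-1 over Control) of the antagonist and ID genes with all 6 libraries (diamond, with its 95% interval) and with each library left out in turn (other symbols). *Nog* ranges from -1.59 to -0.06, *Id1* from -1.09 to -0.49 and *Id3* from -0.63 to -0.19, and for each the value nearest 0 is the one without the middle Control library.

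The middle Control library held the highest Control value for 7 of the 10 genes, among them *Nog*, *Id1*, *Id2* and *Id3*. Over all tested genes it was the highest of the 3 for 40.0%. The coefficient of variation among Control libraries was 44.4% for *Id1*, 34.2% for *Id3*, 33.2% for *Bmp2* and 12.1% for *Id2*, and 3.25% to 9.93% for *Bmp3*, *Bmp4*, *Bmp5*, *Bmp7* and *Bambi*. Among KD-1 libraries it was 55.7% for *Bmp2*, 23.8% for *Id1*, 23.5% for *Bmp5*, 23.2% for *Bmp3* and 16.8% for *Bmp7*, and 4.64% to 10.4% for *Id2*, *Bmp4*, *Bambi* and *Id3*.

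The fourth ID gene, *Id4*, rose, from 1.93 ± 0.57 to 7.37 ± 0.549 CPM (SD, n = 3, log2 fold change 1.99 ± 0.22 SE, edgeR adjusted p = 6.6e-05). Summed per exon length, the 4 ID genes gave 23.8 ± 4.96 CPM per kb in Control and 25.4 ± 1.13 in KD-1, a difference within the Control spread. Of that sum *Id1* held 8.54% in Control and 4.55% in KD-1, *Id3* 26.8% and 18.5%, *Id2* 62.9% and 70.6%, and *Id4* 1.81% and 6.34%.

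Ordered by level per exon length, the Control gastruloids had *Id2* first (14.8 CPM per kb), then *Id3* (6.50), *Bmp7* (4.51), *Bmp3* (3.47), *Bmp5* (2.14), *Id1* (2.10), *Bambi* (1.44), *Nog* (0.321), *Bmp4* (0.225) and *Bmp2* (0.135). The neighbours *Id3* and *Bmp7*, *Bmp5* and *Id1*, *Id1* and *Bambi*, and *Nog* and *Bmp4* overlapped between libraries. In KD-1 the order was *Id2* (17.9), *Id3* (4.69), *Bambi* (1.31), *Id1* (1.16), *Bmp7* (1.08), *Bmp4* (0.496), *Bmp5* (0.195), *Nog* (0.148), *Bmp3* (0.0272) and *Bmp2* (0.0141). There the overlapping neighbours were *Bambi* and *Id1*, *Id1* and *Bmp7*, and *Bmp5* and *Nog*. *Bmp4* stood under *Bmp3*, *Bmp5* and *Bmp7* in Control, and under *Bmp7* alone of the 5 ligands in KD-1.

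The promoters of *Id2* and *Id3* are shown because ID genes are direct SMAD targets, and *Id2* and *Id3* are the 2 of them with a matched promoter. The difference between their fold changes was not tested. They were read from RefSeq promoters on GRCm38.p6, which matched 4 of the 10 genes (*Bmp4*, *Bmp5*, *Id2* and *Id3*). Each run is the 250 bases before the gene's start, 5′ to 3′ on the gene's strand, *Id2* at chr12:25096093-25096342 (minus) and *Id3* at chr4:136143572-136143821 (plus). Capitals mark the letters of the GC-rich SMAD1/5 element GGCGCC and of the SMAD box GTCT, which reads AGAC on the other strand.
Id2: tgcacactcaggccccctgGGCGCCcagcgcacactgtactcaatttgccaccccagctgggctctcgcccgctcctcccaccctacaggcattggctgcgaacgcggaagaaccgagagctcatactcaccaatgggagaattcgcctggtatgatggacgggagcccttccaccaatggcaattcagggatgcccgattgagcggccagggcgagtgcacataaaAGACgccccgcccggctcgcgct
Id3: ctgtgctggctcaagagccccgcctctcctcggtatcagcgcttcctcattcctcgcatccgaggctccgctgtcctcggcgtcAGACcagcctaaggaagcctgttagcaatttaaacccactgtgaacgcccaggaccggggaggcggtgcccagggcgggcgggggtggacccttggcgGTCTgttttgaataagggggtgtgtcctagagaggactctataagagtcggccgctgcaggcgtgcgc
*Id2* held 1 GGCGCC and 1 GTCT in these bases and *Id3* held 2 GTCT and no GGCGCC. Both strands were searched in 300 bases, up to 50 bases past the start, where *Id3* held 1 more GTCT. In the same windows *Bmp4* held 2 GTCT and *Bmp5* 1, and neither held GGCGCC. Of 32851 promoters of that length, 88.0% held GTCT and 11.9% held GGCGCC. Of the E boxes, the sites that E proteins bind, *Id2* held 1 CAGCTG (16.3% of promoters) and *Bmp4* 1 CACCTG (20.2%), and none of the 4 held CAGATG (17.2%). A match of letters is a description and does not show that a factor binds.

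The rest of the pathway was read from a list of 47 other genes, of which 35 were tested. *Acvrl1*, *Bmper* and *Nbl1* carried enough counts to be tested through the Control libraries, and *Gdf6* and *Hjv* through the KD-1 libraries. Among the 35 tested, 9 were called higher and 10 lower, 16 were not called, and the groups did not overlap for 28. The median log2 fold change was -0.14. Shares over all tested genes were 19.7% called higher, 18.1% called lower and 70.6% without overlap. The counts were not tested against these shares.

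Among type I receptors, *Bmpr1a*, by far the most abundant, was at 159 CPM in Control and 144 in KD-1 and was not called (log2 fold change -0.14, 95% interval -0.33 to 0.05). *Acvr1*, which encodes ALK2, was also not called (-0.09, 95% interval -0.28 to 0.11). *Bmpr1b* rose from 1.48 to 5.37 CPM (log2 fold change 1.84 ± 0.20 SE, edgeR adjusted p = 7.1e-05), and *Acvrl1*, the endothelial receptor ALK1, fell from 0.556 to 0.0811 CPM (-2.63 ± 0.50 SE, adjusted p = 0.0017). Of the type II receptors, the BMP-specific *Bmpr2* rose from 48.9 to 94.3 CPM (0.95 ± 0.13 SE, adjusted p = 2.2e-04), with 38.3 to 56.3 CPM in the Control libraries and 89.4 to 97.3 in KD-1. *Acvr2a* (log2 fold change 0.54) and *Acvr2b* (-0.41), shared with activins, were not called. *Acvr2a* was called at 0.64 without the shallowest Control library and at 0.60 with library size scaling, and *Acvr2b* at -0.60 without the middle Control library. The antisense gene *Orc4* covers 30.5% of the exonic bases of *Acvr2a*.

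The co-receptors split. *Rgmb* (Dragon) fell from 42.4 to 21.6 CPM (log2 fold change -0.97, edgeR adjusted p = 8e-06), while *Rgma* stayed under the fold threshold (-0.55, adjusted p = 9.6e-04) except without the shallowest Control library (-0.59). *Eng*, encoding the endothelial co-receptor endoglin, rose from 1.12 to 4.60 CPM (2.07, adjusted p = 2.9e-04). *Hjv* was called higher from 3 counts in all Control libraries to 63 in KD-1, a ratio of 13.9 relative to library size with a 95% counting interval of 4.56 to 69.4, and its fitted log2 fold change of 3.77 became 7.17 without the deepest Control library.

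None of the tested SMAD transducers was called, with log2 fold changes of -0.27 for *Smad1*, -0.30 for *Smad5* and -0.02 for *Smad4*. *Smad9* was too low to be tested, with 1 count in Control and 20 in KD-1. The inhibitory SMADs, feedback inhibitors that BMP and TGF-β signals induce, went in opposite directions. *Smad7* rose from 9.38 ± 0.832 to 20.1 ± 0.411 CPM (SD, n = 3, log2 fold change 1.1 ± 0.09 SE, edgeR adjusted p = 1.2e-05). *Smad6*, the one more specific to BMP, fell from 2.02 ± 0.485 to 0.971 ± 0.243 CPM (-1.06 ± 0.28 SE, adjusted p = 0.0099). The ubiquitin ligases *Smurf1* (-0.07) and *Smurf2* (-0.04) were not called.

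Among the other secreted antagonists and modulators, 1 was called higher and 4 lower of the 9 tested. *Chrdl1* rose from 2.37 to 5.21 CPM (log2 fold change 1.16, edgeR adjusted p = 4.2e-04), whereas *Chrd* (chordin) fell from 2.84 to 1.19 (-1.27, adjusted p = 9.8e-04). *Bmper* fell furthest, from 2.38 to 0.127 CPM (-4.04, adjusted p = 5e-05), *Nbl1* (DAN) from 1.76 to 0.294 (-2.49, adjusted p = 4.2e-04), and *Sost* from 5.48 to 1.65 (-1.73, adjusted p = 2.3e-04). *Fst* (follistatin), *Grem1*, *Twsg1* and *Crim1* were not called, with log2 fold changes from -0.48 to 0.38. *Chrdl2*, *Fstl3* and *Sostdc1* were too low to be tested.

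Both tested metalloproteases that cleave chordin fell, *Bmp1* from 34.6 to 11.6 CPM (log2 fold change -1.59, edgeR adjusted p = 3e-06) and *Tll1* from 2.96 to 0.327 (-3.18, adjusted p = 3.8e-05), and *Tll2* was too low to be tested. *Bmp1* encodes a protease and is no ligand. Of the other targets, *Msx2* rose from 0.740 to 1.53 CPM (1.02, adjusted p = 0.0088), *Atoh8* fell from 3.84 to 0.594 (-2.72, adjusted p = 2.9e-05), and *Msx1* was not called (0.40, adjusted p = 0.06). Among the E proteins that ID proteins bind, *Tcf3* (E2A) fell from 88.5 to 39.3 CPM (-1.17 ± 0.17 SE, adjusted p = 3.5e-04), with its highest value, 116 CPM, in the middle Control library, and *Tcf4* (-0.05) and *Tcf12* (0.05) were not called.

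**Figure D4:**
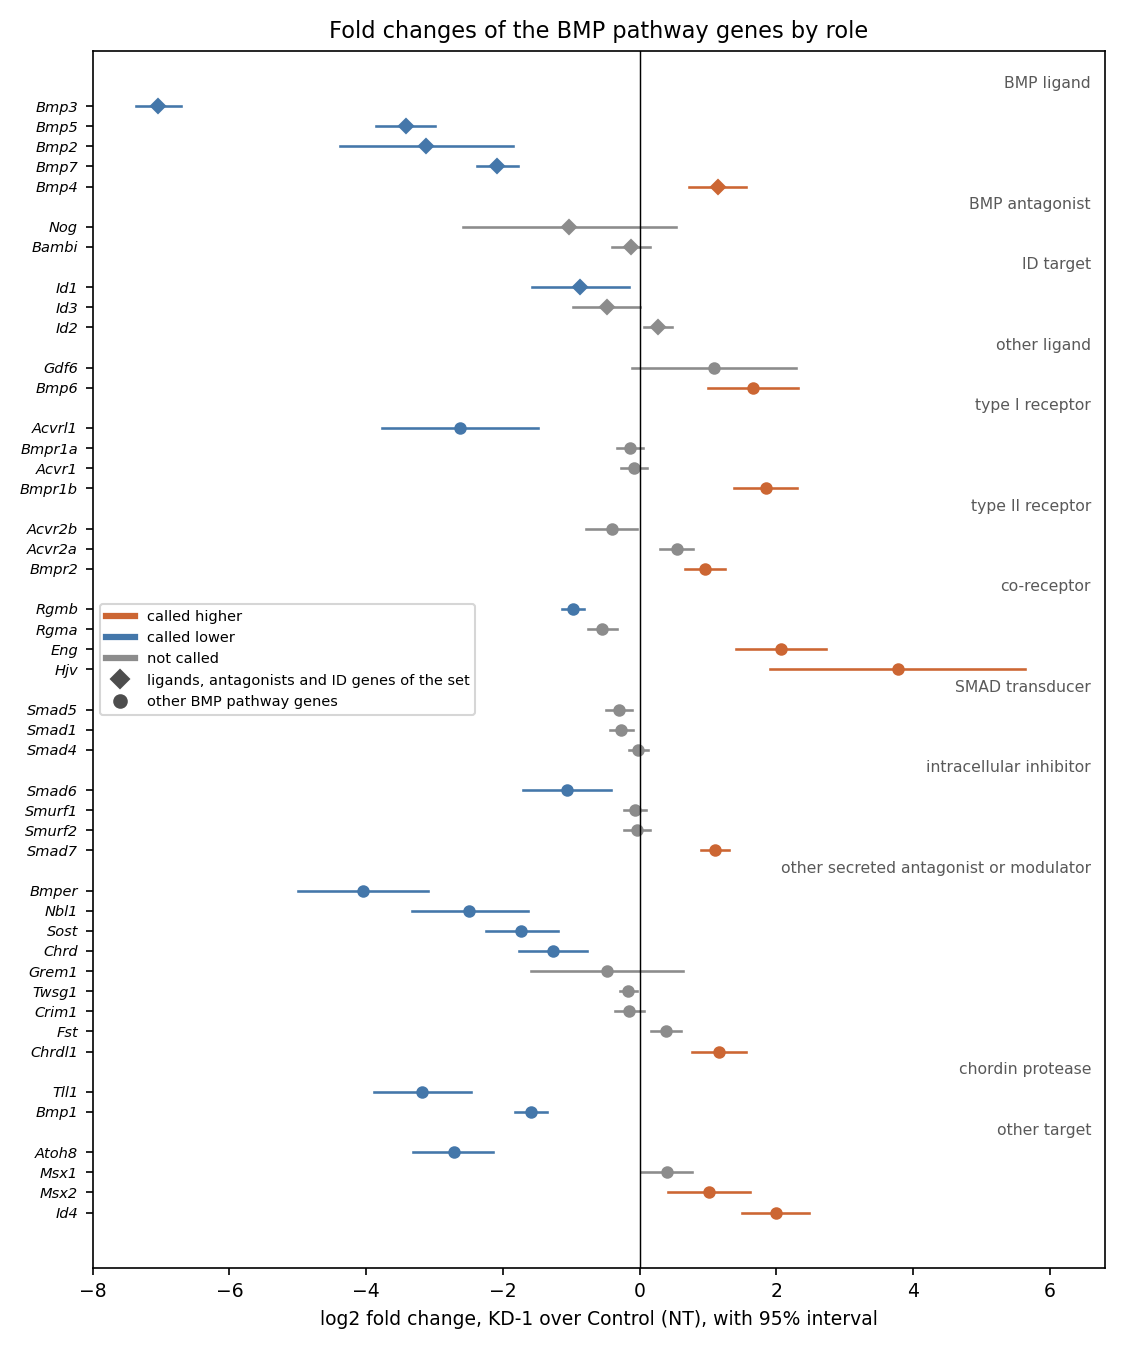
Log2 fold change (KD-1 over Control, horizontal axis) of every tested BMP pathway gene by role, with its 95% interval from edgeR, diamonds for the 10 genes and circles for the others. *Bmp3* lies furthest left at -7.04.

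The genes whose profiles over the 6 libraries were most like those of a ligand, an antagonist and a target were read by Pearson's r of log2 CPM with 14967 genes, as a description. For *Bmp4* they were *Me1*, *Hspd1* and *Ttbk1* (r = 0.999 for each), among 325 genes over 0.99, and the points fall into the 2 groups. For *Nog* they were *Xkr6*, *Ripk4* and *Esam* (r = 0.978, 0.978 and 0.972), with no gene over 0.99. For *Id1* they were *Surf1*, *Pla1a* and *Gorasp1* (r = 0.992, 0.992 and 0.989), with 2 genes over 0.99. The points share depth and the high value of the middle Control library.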

How the data were processed

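RNA was extracted with Trizol from day 5 gastruloids and sequenced from Illumina TruSeq libraries. The authors quantified the reads with Salmon 1.1 against a Gencode gene model and deposited estimated counts (expected counts) per Ensembl gene in whole numbers, without normalization. The use of strand and the genome build are not given in the sources used here. Salmon shares reads between overlapping genes and near-identical copies, whose counts are uncertain. Beyond the genes where this is stated, antisense genes cover 14.2% of the exonic bases of *Chrd*, 13.7% of *Id1* and 11.8% of *Id3*. They also cover 11.0% of those of *Eng* and 5.77% of those of *Bmp6*, among others. Column names give the group of each library but not its replicate number. The table held 0 other columns of per-sample values.

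Counts were tested with edgeR 4.0.16 (R 4.3.3): filterByExpr, TMM, and a robust quasi-likelihood fit of the 2 groups with no covariate. P-values were adjusted by Benjamini-Hochberg over 15110 genes, and calls needed both an adjusted p below 0.05 and a fold change above 1.5 or below 0.667. Intervals of fold changes are 95%, and Poisson and counting intervals cover counting error only. Scripts were tested on simulated data. Names, positions and exon lengths were those of GENCODE vM39 (GRCm39), in which 35222 of 35565 identifiers were found. DESeq2 1.42.0, limma 3.58.1, other scalings, filters and thresholds, and each library left out in turn were alternatives. Named genes are the 10 genes, every gene of the BMP pathway and E protein lists, and the 3 genes most correlated with *Bmp4*, *Nog* and *Id1*. Other genes named are markers. The 10 genes and all lists were chosen with earlier results of these data known. 1 gene of the pathway list is not reported here and was left out of its counts. Protein sequences were not analysed here.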

Additional observations from a re-analysis of the deposited data

How the results depend on the processing

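The calls of *Bmp2*, *Bmp3*, *Bmp4*, *Bmp5* and *Bmp7* held in every refit at the main threshold that tested them. Their log2 fold changes were -3.38 to -2.80, -7.19 to -6.82, 1.1 to 1.2, -3.57 to -3.25 and -2.20 to -1.97. Of 137 values of the 10 genes in refits, 131 kept their direction and side of the threshold. A call was lost in 4, all of *Id1* with 1 library left out, and gained in 2 (*Nog* and *Id3*). Changed thresholds are not among the 137 values. With at least 10 counts in every library, 3 of the 10 genes were called lower, since genes low in KD-1 were not tested. With no fold threshold 9597 of all genes were called (4676 higher, 4921 lower), and 2 of the 10 were higher, *Id2* being the addition. With an absolute log2 fold change over 1 the count was 3274 (1948 higher, 1326 lower), and with glmTreat 3763 (1680 lower). *Id1*, at -0.87, was not called with the threshold of 1. Leaving out 1 library gave 5176 to 6113 calls, of which 4 to 6 of the 10 genes were lower and 1 higher. With 1 library left out *Id1* was not called in 4 of 6 fits.

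Values near 0 changed sign. *Smad4* was at 0.0106 with DESeq2, 0.00521 with RLE factors, 0.0368 with library size only, 0.0235 with the filter of 10 counts, and 0.00591 and 0.00734 in 2 fits without 1 library, whose range began at -0.0725. *Smurf2* was at 0.0195 with library size only, 0.00688 with at least 10 counts, and 0.00179, 0.00248 and 0.0115 in fits without 1 library, down to -0.119 in the others. *Tcf4* was at 0.00258 with library size only and 0.0251 without the shallowest Control library, with -0.138 as its lowest value, and *Tcf12* at -0.0253 without the middle one and up to 0.103 in the others. The cause was not tested.

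No paired analysis was run. The columns of the count table do not carry the replicate numbers of the labels. The sources used here also do not say that Control and KD-1 replicates of the same number belong together. Counts were lowest for *Nog* and *Bmp2*, with 1 to 33 per library. For *Nog* the middle and the deepest Control library also differed by more than counting error, so depth is not its only limit. With 3 libraries per group, each from 1 line, differences between clones cannot be told apart from the knockdown.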
